A study of Quercus robur with 6 samples.

Results

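Of the 27 miRNA names in degradome tables from pedunculate oak (Quercus robur) roots, 8 were given by the study itself, as a sequence with no family name, and the other 19 belong to families of the miRBase catalogue. The 8 study-defined miRNAs were chosen by this naming alone and accounted for 31 of the 89 target sites and for 50 of the 231 calls. A call is 1 miRNA listed at 1 site in 1 library. The miRNAs are numbered here by their number of distinct sites, so that miRNA 1 has the most. The libraries came from wild-type seedlings, with RNA of taproot and lateral root pooled in each, in 3 replicates under drought stress and 3 well-watered control replicates. All plants were acclimatised for 8 weeks, and the drought, at a soil moisture of 25% relative to control plants, lasted 4 weeks. The labels do not say how the seedlings of each library were cultivated. The tables hold no expression values, so the tissue could not be checked against marker genes, and no read totals from which sequencing depth could be read.

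Plant miRNAs guide an Argonaute protein to a transcript that pairs with them along nearly their whole length, and the protein cuts the transcript opposite miRNA bases 10 and 11. The downstream fragment has no cap, and degradome sequencing reads the first base of such fragments, so that reads gather at the cut. The base at which the fragment begins is called the slice position. No exact function is given for the study-defined miRNAs in the sources used here. Their alignments, categories and recurrence are therefore described in place of roles.

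The sequences of the 6 miRNAs on which the results turn are shown 5′ to 3′. The seed, bases 2 to 8, is in capitals, because both seeds and whole sequences were compared here.
miRNA 1, 21 nt: uUAGUCCAagacucggccaca
miRNA 2, 21 nt: uUUGGAAAcgcacuugaaucg
miRNA 3, 22 nt: uUGCCGAAuccgcccauuccua
miRNA 5, 21 nt: uUUUAAGAacucuauaggauc
miRNA 6, 22 nt: aAAUGGGUgcguuggcaagaag
miRNA 7, 22 nt: cGUGAUAUugguucggcucuuc
No seed was shared within the set, so each of the 8 miRNAs (miRNA 4 and miRNA 8 have 21 nt each) forms a seed group of 1. Against the family sequences in the tables, miRNAs 1 to 6 and miRNA 8 differed from the nearest one by 9 to 12 edits. MiRNA 7 is the exception among these comparisons and is compared with the miR171 family further on. Families outside the tables were not compared, so likeness of any of the 8 miRNAs to those is not known.

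The sites called in at least 3 libraries, and the site that a pair of transcripts called under drought alone have in common, are shown 5′ to 3′ as on the transcript, with capitals for bases that are not Watson-Crick partners of the miRNA, G:U pairs included. They show how close each recurring site is to a perfect complement.
Qrob_T0323550.2, site of miRNA 1: uguggUcgagucuuggacuaa
Qrob_T0519660.2, site of miRNA 1: CgugUccAagucuuggacuaG
Qrob_T0205770.2, site of miRNA 1: uguggcUgagucuuggacuaG
Qrob_T0323760.2 and 3 more transcripts, site of miRNA 2: cgauucaGgugcguuuccaaa
Qrob_T0485420.2 and Qrob_T0485430.2, site of miRNA 2: cgauucaagugcguCuccaaG
Qrob_T0458490.2, site of miRNA 5: gauccuGuaACUgaguucuuGaaU
Positions on a transcript count from its first base in the PM1N transcript set. No genome coordinates or transcript lengths were used. None of the 31 transcripts could be matched to the RefSeq gene table, and they are named by their identifiers.

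The 31 sites lay on 31 different transcripts, none of which carried a listed site of a miRBase family. Each site of a library was listed under only 1 miRNA name, so sites common to both kinds may not be visible. In 30 of the 31 sites, miRNA bases 10 and 11 were both paired and the slice position was 10 bases from the 3′ end of the site. The exception was the only site of miRNA 6, at 12 bases, with 2 extra target bases in the alignment. A site is listed at the slice position of its alignment, so this distance is not separate evidence of cutting. The alignment is scored in the tables by the Allen score, a penalty that is 0 for a perfect complement. It is also scored by the MFE ratio, which divides the duplex's minimum free energy by that of a perfect complement. The ratio is best at 1, and higher quotients are listed as 1. Over the 31 study-defined sites the median Allen score was 2.5 (0.5 to 12), against 4 (1 to 16) over the 58 family sites, and the median MFE ratio was 0.866 (0.669 to 1), against 0.808 (0.653 to 1). Slice positions ran from base 89 to base 1633. Site sequence, start and scores of a site were the same in every library that called it.

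The degradome category says how a slice position compares with the rest of its transcript. In category 0 it holds more than 1 read and is the only maximum, in category 1 it shares the maximum, in category 2 it lies between the maximum and the typical level, in category 3 it does not exceed that level. Category 4 positions have a single read. Of the 50 study-defined calls, 27 were in category 0, 12 in category 1, 1 in category 2, 2 in category 3 and 8 in category 4. The 181 family calls gave 81, 17, 52, 17 and 14. Category 2 thus held 2% of the study-defined calls, 1 call in drought replicate 3, against 28.7% of the family calls, which had 6 to 12 category 2 calls in each library. This contrast was noticed in the data and was not tested.

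The p-value in the tables depends on the category and on the rank of the alignment among all alignments of that miRNA, and the rank was recovered from it. Rank 1 is the best alignment. Among 49 pairs of calls of one miRNA in one library, the call with the higher MFE ratio never had the higher rank number, and 5 pairs were tied. Study-defined calls had a median rank of 6 and reached rank 136, against a median of 2 and a highest rank of 152 for family calls. Calls past rank 5 made up 25 of 50 study-defined calls (50%) and 26 of 181 family calls (14.4%). The median rank of study-defined calls was 15.5, 7 and 6 in drought replicates 1, 2 and 3 and 5, 3 and 10.5 in control replicates 1, 2 and 3. It was above that of family calls in 5 of the 6 libraries and equal in control replicate 2.

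Rank and category together decide what a table can list. At the p-value limit of 0.05, category 0 passed down to a rank between 144 and 167, depending on the library, and category 1 down to a rank between 100 and 112. Category 2 passed only to ranks 2 to 4. Of the 25 study-defined calls past rank 5, 14 were in category 0, 10 in category 1 and 1 in category 3. The family calls in category 2 had ranks 1 to 4.

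MiRNA 1 had the most sites, with 10 sites, 19 calls and a call in every library. It was called at 1, 3 and 4 sites in the drought replicates, against 3, 6 and 2 in the control replicates, so the ranges overlap. Of its calls, 15 were in category 0, 3 in category 1 and 1 in category 4. Allen scores ran from 0.5 to 4 (median 2.25) and MFE ratios from 0.669 to 0.965 (median 0.866). Slice positions lay between bases 899 and 1034 in 9 of the 10 transcripts and at base 264 in Qrob_T0653510.2. In every site 15 of the 21 miRNA bases were paired, base 2 among them.

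The site of miRNA 1 in Qrob_T0323550.2 (bases 1023 to 1043, slice position 1034) pairs throughout, with 1 G:U pair. Its Allen score was 0.5 and its MFE ratio 0.965. It was in category 0 in drought replicates 1 and 3, with p-values of 0.000305 and 0.000710, and in control replicates 1 and 3, with 0.000330 in each. In control replicate 2 it was in category 4, with a p-value of 0.0224. It was not called in drought replicate 2. The site thus recurred in both conditions at rank 1 or 2, and the category was the same in all calls but 1.

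The site in Qrob_T0519660.2 (bases 927 to 947, slice position 938) had the lowest MFE ratio of miRNA 1, 0.669, and an Allen score of 4, with 3 mismatches and 1 G:U pair. It was in category 0 in each of its 4 libraries, with p-values of 0.0438 and 0.0461 in drought replicates 2 and 3 and 0.0439 and 0.0447 in control replicates 1 and 2. Its ranks were 134, 133, 136 and 132 in that order. A poorly ranked alignment was therefore called at the transcript's single maximum in 4 libraries, close to the p-value limit. At rank 136, a category 0 position would have had a p-value of 0.0407 in drought replicate 1 and 0.0439 in control replicate 3, the libraries without a call, and would have been listed there.

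The site in Qrob_T0205770.2 (bases 915 to 935, slice position 926) has 2 G:U pairs, scoring 1.5 by Allen score and 0.960 by MFE ratio. It was in category 1 in drought replicate 2 (p-value 0.00143), and in category 0 in drought replicate 3 (0.00106) and in control replicate 2 (0.00104), at rank 3 each time. The other 7 sites of miRNA 1 were called in 1 library each. Of these, Qrob_T0125140.2 and Qrob_T0653510.2 were called under drought, and Qrob_T0323770.2, Qrob_T0477920.2, Qrob_T0666260.2, Qrob_T0666280.2 and Qrob_T0728010.2 in control. Qrob_T0666260.2 and Qrob_T0666280.2, which hold the same site sequence, were both called in control replicate 2 alone, at slice positions 996 and 899.

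MiRNA 2 had the closest complements, with 9 sites, 15 calls and Allen scores of 0.5 to 2.5 (median 1). It was called at 3, 2 and 4 sites in the drought replicates, against 0, 3 and 3 in the control replicates. Of its calls, 9 were in category 0, 3 in category 1 and 1 in each of categories 2, 3 and 4. The MFE ratio ran from 0.869 to 1 (median 0.985) and was 1 in 4 sites, all of them with the shared sequence shown above. In those sites the listed free energy (−34.4 to −34.2) was below that of the perfect complement (−33.5), so 1 is a ceiling here. The slice positions of miRNA 2, at bases 107 to 242, were all nearer the transcript start than those of miRNA 1.

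The 9 sites of miRNA 2 held only 4 different sequences. The sequence shared by 4 transcripts pairs throughout with 1 G:U pair. It was called 9 times, in all 3 drought replicates and in control replicates 2 and 3. Within this set Qrob_T0323760.2 (bases 231 to 251, slice position 242, Allen score 0.5, MFE ratio 1) gave 5 calls, all in category 0, with p-values of 0.000611, 0.000334 and 0.00142 in drought replicates 1, 2 and 3 and 0.00104 and 0.00132 in control replicates 2 and 3. It was not called in control replicate 1, which had no call of miRNA 2 at all. The site was high in rank in each library, between 1 and 4.

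Qrob_T0323650.2 (bases 148 to 168, slice position 159), with the same site sequence, Allen score 0.5 and MFE ratio 1, was called only in control, in category 1 in replicate 2 (p-value 0.000455) and in category 4 in replicate 3 (0.0452). Qrob_T0323810.2 was called in drought replicate 2 (category 0, slice position 115) and Qrob_T0168090.2 in drought replicate 3 (category 2, slice position 205). The 4 transcripts with an identical site thus differed in the libraries and categories of their calls. Reads of fragments that begin in a stretch shared by related transcripts may align to more than 1 of them, and how such reads were assigned is not given in the sources used here.

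Qrob_T0485420.2, annotated by the study as an F-box/kelch-repeat protein, and Qrob_T0485430.2 hold another shared site of miRNA 2, with 1 mismatch at miRNA base 7 and 1 G:U pair. F-box proteins pick the substrates of ubiquitin ligases. Qrob_T0485420.2 (bases 117 to 137, slice position 128, Allen score 2.5, MFE ratio 0.910) was in category 1 in drought replicates 1 and 3, with p-values of 0.0132 and 0.0125 at ranks 26 and 27, and Qrob_T0485430.2 (slice position 107) was in category 0 in drought replicate 1. Neither was called in a control library. Since 2 of 3 drought libraries against 0 of 3 called Qrob_T0485420.2, the conditions overlap at this site. A further pair, Qrob_T0548860.2 in drought replicate 3 (category 0) and Qrob_T0255290.2 in control replicate 2 (category 3), shared both its site sequence and its slice position, 164. Qrob_T0023070.2 completes the set, called in control replicate 3 at slice position 111.

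MiRNA 3 paired more loosely with its 6 sites, at Allen scores of 5.5 to 7 (median 6.5) and MFE ratios of 0.769 to 0.829. All 6 sites left miRNA base 8 unpaired. The 6 site sequences were all different. It was called at 1, 2 and 0 sites in the drought replicates, against 2, 0 and 3 in the control replicates, with 3 calls in category 0 and 5 in category 1. Slice positions were at bases 605 to 704 in 5 transcripts and at base 89 in Qrob_T0007810.2. Its ranks ran from 7 to 45, so every call of miRNA 3 was one that the p-value limit lets through in category 0 or 1 but not in category 2.

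Qrob_T0146430.2 (bases 650 to 671, slice position 662) had the lowest Allen score of miRNA 3, 5.5, and its highest MFE ratio, 0.829, and was in category 1 at rank 7 in drought replicates 1 and 2, with p-values of 0.00358 and 0.00334, and in no control library. Qrob_T0007810.2 (bases 77 to 98, slice position 89, Allen score 6.5, MFE ratio 0.780) was in category 1 in control replicate 1 (p-value 0.0138) and in category 0 in control replicate 3 (0.00952), and in no drought library. No site of miRNA 3 was called in both conditions. The other 4 sites had 1 call each, Qrob_T0739060.2 under drought and Qrob_T0051100.2, Qrob_T0133800.2 and Qrob_T0347580.2 in control.

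The 5 miRNAs with 1 or 2 sites gave 8 calls, 7 of them in control. MiRNA 4 was called at slice position 679 of Qrob_T0546290.2 in control replicate 2 (category 4, Allen score 3) and at slice position 696 of Qrob_T0516490.2 in control replicate 3 (category 3, Allen score 5). MiRNA 6 was called in drought replicate 1 alone, at slice position 97 of Qrob_T0474800.2 (bases 85 to 108, category 1, p-value 0.0298). That alignment had rank 59, the highest Allen score of the set (12), a low MFE ratio (0.675) and unpaired miRNA bases 9 and 10. MiRNA 8 was called in control replicate 2 alone, at slice position 169 of Qrob_T0222250.2 (bases 158 to 178, category 4, p-value 0.0224). That alignment had rank 1, with 2 as Allen score and 0.916 as MFE ratio.

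MiRNA 5 had a single site, in Qrob_T0458490.2 (bases 880 to 903, slice position 894), with Allen score 8.5, MFE ratio 0.838 and 3 target bases with no partner. It was called in no drought library, against all 3 control libraries, where it was in category 4 at rank 2 with p-values of 0.0479, 0.0442 and 0.0452 in replicates 1, 2 and 3. The groups do not overlap. Its count per library differed by −1 site, drought minus control, with p = 0.1 in the two-sided exact permutation test, which allows no smaller value with 3 libraries a group, and an adjusted p of 0.9 over the 27 names. By Fisher's exact test on its presence, p was 0.1 and the adjusted p over the 89 sites was 1.

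Whether a category 4 call can be listed depended on the library. In category 4 the share of transcriptome positions (category density) was 2.87% in drought replicate 2 and 3.27% in drought replicate 3, where rank 2 would have had p-values of 0.0566 and 0.0643, above the limit. It was 2.42%, 2.24% and 2.29% in the control replicates, where rank 2 passes. At rank 2, a single read at slice position 894 of Qrob_T0458490.2 would therefore not have been listed in those 2 drought libraries. At rank 1 it would have had p-values of 0.0287 and 0.0327 there and would have passed. The rank of the site in those libraries is not known, and whether the density accounts for the missing calls was not tested. Drought replicate 1 had no category 4 call, and its density was not known. The 2 drought densities rest on 1 distinct p-value each, taken as rank 1. Of the family sites with that p-value, 3 were also in category 4 in a control library, and all 3 had rank 1 there.

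MiRNA 7 shared its seed with 2 sequences of the miR171 family, which in other plants guides the cutting of transcripts for GRAS transcription factors. They are shown with the seed in capitals to compare them with miRNA 7 above.
qrb-miR171, first sequence: cGUGAUAUugauuuggcucuuc
qrb-miR171, second sequence: uGUGAUAUugguacggcucguc
Counted from the 5′ end, with the family base first, miRNA 7 differed from the first sequence by A11G and U14C and from the second by U1C, A13U and G20U. MiRNA 7 was called once, at slice position 1633 of Qrob_T0267250.2 in control replicate 1 (bases 1621 to 1642, category 4, rank 2, p-value 0.0479), with Allen score 7, MFE ratio 0.743 and unpaired bases 7 and 8 in its seed. The first family sequence had 3 calls at 2 sites and the second 1 call at 1 site, all on other transcripts. MiRNA 7 and the family sequences were thus not called at a common site. In no library was a site listed under more than 1 miRNA name, so a common site within a library may not be visible.

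Between conditions, the design asked whether the study-defined miRNAs had different sites under drought. They had 6, 7 and 8 sites in drought replicates 1, 2 and 3, against 7, 12 and 10 in the control replicates. The means were 7 ± 1 and 9.67 ± 2.52 sites (SD, n = 3 each), and the two-sided exact permutation test on their difference of −2.67 gave p = 0.3. The direction turned with categories 0 to 2 alone, to 0.667 sites, and with a p-value limit of 0.01, to 0.333 sites. The difference was −0.667 sites where Allen scores were limited to 4 and also with 1 common density per category. All libraries together held 33, 41 and 38 sites under drought and 37, 45 and 37 in control.

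Of the 31 sites, 4 were called in both conditions, 10 under drought alone and 17 in control alone. Most of those in a single condition were called in 1 library, 8 of the 10 and 14 of the 17. The sites in both conditions were those of miRNA 1 in Qrob_T0323550.2, Qrob_T0519660.2 and Qrob_T0205770.2 and that of miRNA 2 in Qrob_T0323760.2. Any 2 libraries of the same condition shared 2 to 4 sites, and any 2 of different conditions shared 1 to 4. Under drought 4 of the 8 miRNAs were called, against 7 in control, and miRNAs 1, 2 and 3 were called in both. The same splits over all 89 sites and 27 names are not given here, so neither is read as particular to this set.

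No miRNA name passed an adjusted p of 0.05 (0 of 27, 0%) and none passed it unadjusted in the exact permutation test on sites per library. Among the study-defined miRNAs p was 0.7 for miRNA 1, 0.7 for miRNA 2, 0.8 for miRNA 3, 0.4 for miRNA 4, 0.1 for miRNA 5 and 1 for the others. Every drought library lay above every control library for 2 of the 27 names (7.41%), neither of them study-defined, and below for 1 name (3.7%), which was miRNA 5. Of the 89 sites none passed Fisher's exact test, adjusted or not (0%). With 3 libraries a group, neither test allows a p below 0.1, so no name or site could have passed 0.05. By site, 2 of 89 (2.25%) were called in all drought and no control libraries, none of them study-defined, and 2 of 89 (2.25%) in all control and no drought libraries, of which 1 was the site of miRNA 5. So 1 of 31 study-defined sites showed such a pattern, against 4 of 89 in all.

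The share of study-defined sites in category 0 was 50% (3 of 6), 71.4% (5 of 7) and 62.5% (5 of 8) in the drought replicates, against 57.1% (4 of 7), 41.7% (5 of 12) and 50% (5 of 10) in the control replicates. The exact binomial 95% intervals of single libraries were wide, from 11.8% to 88.2% in drought replicate 1, for example. On average it was 61.3 ± 10.8% under drought and 49.6 ± 7.75% in control (SD, n = 3 each), 11.7 points apart, with p = 0.3 in the two-sided exact permutation test. This direction turned under 4 alternatives, to −8.89 points with a p-value limit of 0.01, −13.0 with categories 0 to 2 alone, −2.65 where Allen scores were limited to 4 and −2.86 with 1 common density per category. Category 4 held 0, 0 and 0 calls in the drought replicates, against 2, 4 and 2 in the control replicates, and 6 of these 8 calls were at rank 2, which would not pass the limit in drought replicates 2 and 3, as described for miRNA 5. The family calls in category 4 were 0, 4 and 3 under drought and 2, 2 and 3 in control, so their ranges overlap.

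The median Allen score of the study-defined sites was 2.5, 2.5 and 1.25 in the drought replicates, against 6.5, 2 and 4 in the control replicates. It averaged 2.08 ± 0.722 under drought and 4.17 ± 2.25 in control (SD, n = 3 each), a difference of −2.08 with an exact permutation p of 0.3 (two-sided), and of 0.25 where Allen scores were limited to 4. The median MFE ratio was 0.913, 0.829 and 0.963 in the drought replicates, against 0.783, 0.891 and 0.816 in the control replicates. It averaged 0.902 ± 0.0674 under drought and 0.830 ± 0.0554 in control (SD, n = 3 each), a difference of 0.0720 with an exact permutation p of 0.2 (two-sided). The ranges overlap in both measures. By Allen score, drought replicates 1 and 2 and control replicate 2 lay within the range of the other condition, and by MFE ratio drought replicate 2 and control replicate 2 did.

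Against the miRBase families in the same libraries, fewer of the study-defined sites recurred, a difference that did not pass its test after adjustment. The smallest p of that test is too large for 1 comparison alone to pass after adjustment. A single library called 22 of the 31 study-defined sites (71.0%), while 4 sites had calls in 2 libraries, 2 sites in 3, 1 site in 4 and 2 sites in 5. None had calls in all 6. A single library called 20 of the 58 family sites (34.5%), while 7 sites had calls in 2 libraries, 11 sites in 3, 2 sites in 4 and 2 sites in 5, and 16 sites had calls in all 6. With sites of one sequence merged, 16 of 25 study-defined site sequences (64%) and 19 of 49 family site sequences (38.8%) were called in 1 library.

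Within a library, the share of sites that were also called in another library was 66.7% (4 of 6), 57.1% (4 of 7) and 62.5% (5 of 8) for study-defined miRNAs in the drought replicates and 57.1% (4 of 7), 50% (6 of 12) and 50% (5 of 10) in the control replicates. For the families it was 85.2% (23 of 27), 88.2% (30 of 34) and 96.7% (29 of 30) in the drought replicates and 90% (27 of 30), 81.8% (27 of 33) and 92.6% (25 of 27) in the control replicates. The means over the 6 libraries were 57.2 ± 6.65% and 89.1 ± 5.28% (SD). The share was lower for the study-defined miRNAs in 6 of 6 libraries, with a mean difference of −31.8 points. The exact sign-flip permutation test gave p = 0.03125, the smallest it allows, and an adjusted p of 0.15625 over the 5 comparisons, which does not pass 0.05. A comparison at this smallest p could not pass alone after adjustment, so the adjusted value leaves the question undecided. A site called in several libraries enters the share of each of them, so the 6 differences are not independent.

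The other 4 comparisons with the families did not pass the exact sign-flip permutation test before or after adjustment. In these exact permutation tests the median Allen score differed by −0.54 (p = 0.5625, adjusted p = 0.6875) and was lower in 4 of 6 libraries, and the median MFE ratio differed by 0.0138 (p = 0.6875, adjusted p = 0.6875) and was higher in 3 of 6. Without miRNA 2 both directions turned, to 0.71 in Allen score and −0.0182 in MFE ratio, and the MFE ratio also turned with categories 0 to 2 alone (−0.000203) and without drought replicate 3 (−0.00566). Category 0 averaged 55.5% of study-defined sites and 44.9% of family sites, a difference of 10.6 points (exact p = 0.125, adjusted p = 0.3125) that was positive in 4 of 6 libraries. It turned to −9.16 points with a p-value limit of 0.01 and to −4.16 points without miRNA 1, and was 28.5 points where Allen scores were limited to 4. Category 4 averaged 13.7% and 7.60%, a difference of 6.05 points (exact p = 0.4375, adjusted p = 0.6875) that was positive in 3 of 6 libraries and negative in 2, and that turned to −3.83 points with 1 common density per category. Sharing of a site sequence with another transcript was about as frequent in both sets, at 10 of 31 study-defined sites (32.3%) and 16 of 58 family sites (27.6%), and was not tested.

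Where a study-defined site was not called, the rank shows in which categories it could have been listed. The 31 sites left 136 combinations of a site and a library without a call. At the highest rank the site had elsewhere, a category 0 position would have passed the p-value limit in all 136, a category 1 position in 134 and a category 2 position in 36. For comparison, ranks of the 9 sites called in more than 1 library differed between libraries by at most 4. A position without a call was therefore, at the same rank, not in category 0 and, in 134 of the 136 combinations, not in category 1. Whether it was in a weaker category or had no read cannot be told apart in most of them.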

How the data were processed

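Degradome libraries were made from root RNA of 3 drought-stressed and 3 control replicates, and groups were taken from the sample labels. CleaveLand4 4.5 was run by the authors on each library (file headers), with a p-value limit of 0.05, categories up to 4, the longest PM1N transcripts and 1 alignment file for all libraries. The submitters' processing notes also name cutadapt, FastQC, HISAT2 and Bowtie. The deposited tables give, per call, the Allen score, the MFE ratio, the category (used as a score), the p-value, free energies and positions. The deposited p-value is not corrected for the number of searches, and calls above the limit are not listed. No read counts were used, and depth is unknown from these values, so intervals (exact Clopper-Pearson, 95%) cover the counting error of calls alone.

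CleaveLand4 derives p from the category density and the rank, and both were recovered as the largest common step of −ln(1 − p) per library and category. Where a category had 1 distinct p-value, it was taken as rank 1. Values per library were compared by two-sided exact permutation tests over 20 assignments (smallest p 0.1), study-defined with family miRNAs by exact sign-flip tests over 64 sign patterns, and sites by Fisher's exact test, with Benjamini-Hochberg adjustment over 27 names, 89 sites and 5 comparisons. The labels call the replicates biological, but the RNA was pooled, so p-values measure the spread between these libraries. The members, comparisons and alternatives were chosen with earlier results of these data known. Every study-defined miRNA was described, with full values for sites called in at least 2 libraries and for the only site of a miRNA, and other sites by range and count. Python 3.11.15, numpy 2.4.6, pandas 2.3.3 and scipy 1.17.1 were used. The step search and tests were tested on simulated data.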

Additional observations from a re-analysis of the deposited data

How the results depend on the processing

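The lower recurrence of study-defined sites kept its direction under every alternative run, with differences of −22.1 to −37.4 points over all 6 libraries, and adjusted p stayed above 0.05 in each. No other comparison passed after adjustment under any alternative. At its smallest p, the sign-flip test could not pass for 1 comparison alone after adjustment over 5 comparisons. With a library left out its smallest p was 0.0625, so none could pass. Unadjusted, the exact sign-flip test reached 0.03125, its smallest p, for the differences from the families in Allen score (−1.75) and MFE ratio (0.0775) with a p-value limit of 0.01, in the same measures (−1.58 and 0.0525) where Allen scores were limited to 4, and in category 0 (13.4 points) with categories 0 to 2 alone. Each setting selects calls by rank, Allen score or category, so on the alignment or category compared. None of these p-values is independent support. With a p-value limit of 0.01, the differences drought minus control became 0.333 sites per library and −8.89 points of category 0, and against the families −9.16 points of category 0 and 0 points of category 4. With categories 0 to 2 alone they became 0.667 sites and −13.0 points, and against the families −0.000203 in MFE ratio and 0 points of category 4. With an Allen score of at most 4 they became −0.667 sites, −2.65 points of category 0 and 0.25 in Allen score. With 1 common density per category they became −0.667 sites and −2.86 points of category 0, and against the families −3.83 points of category 4. The 1 study-defined name and the 1 study-defined site present throughout one condition and absent throughout the other, those of miRNA 5, became 0 under each of these 4 alternatives. By construction the limit of 0.01 and categories 0 to 2 remove all category 4 calls, and the Allen limit removes the site of miRNA 5. The common density of category 4 was the highest of any library, 3.27%, at which rank 2 has a p-value of 0.0643. It therefore removes, by construction, every category 4 call at rank 2, those of miRNA 5 among them. The other causes were not tested. Chosen after seeing the data, leaving out miRNA 1 turned the category 0 difference from the families to −4.16 points, and leaving out miRNA 2 turned those in Allen score and MFE ratio to 0.71 and −0.0182.

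Leaving out each library in turn gave −4 to −1.5 sites, 6.65 to 17.4 points of category 0, −3.17 to −0.917 in Allen score and 0.0415 to 0.108 in MFE ratio, drought minus control. Against the families it gave −1.25 to −0.2 in Allen score, −0.00566 to 0.0345 in MFE ratio (negative without drought replicate 3), 7.85 to 13.1 points of category 0, 1.81 to 9.61 points of category 4 and −39.3 to −32.2 points of recurrence. The study-defined names with no overlap between conditions numbered 1 to 2 (2 without control replicate 1). The study-defined sites present throughout one condition and absent throughout the other numbered 1 to 2 (2 without drought replicate 2 or 3 or control replicate 1 or 2). With 2 libraries in a group such a pattern is easier to reach, and these counts are given without those over all 27 names and 89 sites. For miRNA 1 the difference ran from −1.83 to 0.167 sites, and was 0.167 without control replicate 2. Same-numbered drought and control libraries had correlations of −0.106, −0.0456 and −0.141, against −0.0284 to 0.142 for libraries of different number. A check on so few calls cannot exclude that the replicate numbers pair the libraries. With the number as a replicate block, sign-flip tests (smallest p 0.25) gave 0.25 for the difference of −2.67 sites and 0.5 for category 0 share, Allen score and MFE ratio.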
